A study of Rattus norvegicus with 6 samples.

Results

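Ehhadh, Acaa1a, Decr2, Acsl1, Fabp1 and Cat are 6 rat liver genes that bind and activate fatty acids, shorten them in the peroxisome and remove the peroxide this makes. They were chosen by name, with earlier results of these data known, and are read through probes that carry their RefSeq accessions. They are 6 of 15443 named genes on the array. Acaa1a had 2 probes and the other 5 genes had 1 each, so they are read through 7 of 30367 probes. Bile duct ligation, in which the duct that drains the liver is tied, had been used to cause fibrosis in 3 of the rats, and the other 3 were normal. Each rat had 1 array, and RNA was taken from blocks of whole liver. The strain, sex and age of the rats and the time after ligation are not given in the sources used here, nor whether the normal rats had a sham operation. The question put to the genes here is whether their RNA was more or less abundant in the fibrotic livers.

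Fatty acids that enter a hepatocyte are carried through the cytosol by binding proteins and become usable once an acyl-CoA synthetase joins them to coenzyme A. Peroxisomes then shorten very long, branched and dicarboxylic chains in a cycle of oxidation, hydration, dehydrogenation and thiolysis, and the oxidation step makes hydrogen peroxide, which catalase breaks down. In rodent liver many genes of this route are textbook targets of the nuclear receptor PPAR alpha, which binds DNA as a partner of RXR at repeats of a short half-site.

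All 6 genes fell in fibrotic liver. The decrease was 8.25-fold for Ehhadh, 5.59-fold for Decr2, 3.80-fold for Cat, 2.95-fold for Acsl1, 2.14-fold for the brighter probe of Acaa1a and 2.00-fold for Fabp1. Each of these passed the test across all probes, at an adjusted p under 0.05 in limma, against a background of 7.62% of all tested genes that were lower. The other Acaa1a probe did not pass, so 6 of 7 probes were called, where 6.79% of all tested probes were lower and 12.4% higher. The falls were of unequal firmness. Those of Decr2, Ehhadh and Acsl1 were called under each of 5 other scalings between arrays, and those of Acaa1a, Fabp1 and Cat under 2 of the 5. The 2 were the array median and the median over all E1A spike-in spots. That spot median lies in the gap between spike-ins of different concentration.

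Levels are given as log2 of the processed spot signal minus the 75th percentile of that array, so 0 is the 75th percentile and 1 unit is a doubling, and differences are fibrosis minus normal on the same scale. That percentile lay at a signal of 5453 ± 833 (SD, n = 3) on fibrosis arrays and 4016 ± 330 (SD, n = 3) on normal arrays, and 72.8% ± 4.70 (SD, n = 3) and 68.8% ± 1.45 (SD, n = 3) of spots were well above background. Fibrosis array 1 lay in the same slide row as the 3 normal arrays, and fibrosis arrays 2 and 3 lay in the second row, all on 1 slide and in 1 scan. A fit with the slide row as a term therefore sets fibrosis array 1 alone against the 3 normal arrays and assumes that it varies like the others. The median difference of all tested probes was -0.10. All 7 member probes were well above background on all 6 arrays, and no spot was saturated. The scanner software marked 24 of 42 member spots on fibrosis arrays and 35 of 42 on normal arrays as non-uniform or as outliers, and these were kept. Of all spots other than controls, 18.8% to 33.0% were marked on fibrosis arrays and 24.0% to 35.2% on normal arrays. By member probe, from 4 to 12 of 12 spots were marked. It was 12 for Fabp1 and the brighter Acaa1a probe, and 11 for Ehhadh. Without the marked spots 5 of the 7 probes could not be tested and 0 of the other 2 were called.

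The promoters of the members are shown because the genes fell together and because the receptor named above reads repeats of a half-site there. All 6 members matched a RefSeq promoter window on the GRCr8 build, of which the 250 bases before the start are used. The windows of 4 genes are printed 5′ to 3′ on the strand of the gene, those of the 2 largest falls (Ehhadh, chr11:92746159-92746408, plus strand, and Decr2, chr10:15617437-15617686, minus strand), that of Fabp1 (chr4:104749090-104749339, plus strand) and that of Cat (chr3:110329527-110329776, minus strand). Capitals mark matches, on either strand, to the half-site AGGTCA, to the repeat AGGNCANAGGTCA, to TATAAA and to CCAAT.
Ehhadh: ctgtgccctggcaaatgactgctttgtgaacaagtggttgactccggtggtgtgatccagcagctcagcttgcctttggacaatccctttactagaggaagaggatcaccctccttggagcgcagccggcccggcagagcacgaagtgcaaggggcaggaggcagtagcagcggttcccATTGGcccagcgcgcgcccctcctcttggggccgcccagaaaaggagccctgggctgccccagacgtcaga
Decr2: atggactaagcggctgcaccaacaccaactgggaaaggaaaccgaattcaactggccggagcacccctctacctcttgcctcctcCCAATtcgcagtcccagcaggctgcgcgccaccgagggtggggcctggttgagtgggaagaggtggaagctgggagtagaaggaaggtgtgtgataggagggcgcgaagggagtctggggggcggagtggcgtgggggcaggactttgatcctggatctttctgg
Fabp1: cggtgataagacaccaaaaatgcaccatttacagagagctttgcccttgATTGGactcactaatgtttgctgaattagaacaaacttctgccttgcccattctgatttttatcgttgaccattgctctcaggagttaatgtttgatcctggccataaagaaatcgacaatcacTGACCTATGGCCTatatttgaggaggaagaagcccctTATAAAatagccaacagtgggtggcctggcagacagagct
Cat: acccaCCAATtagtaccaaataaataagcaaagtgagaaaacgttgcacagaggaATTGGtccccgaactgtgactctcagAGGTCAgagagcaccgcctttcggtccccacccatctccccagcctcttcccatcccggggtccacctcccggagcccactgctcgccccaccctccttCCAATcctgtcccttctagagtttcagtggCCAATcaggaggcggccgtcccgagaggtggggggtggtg

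Fabp1 was the only member with the repeat, as TGACCTATGGCCT on the opposite strand between 77 and 65 bases before the start. Its first 6 letters are also a half-site match. Of 33469 promoter windows of this length, 0.0866% held that repeat and 14.1% held a half-site. The looser repeat was searched because the site of Fabp1 was known. The strict repeat AGGTCANAGGTCA was in none of the 6 windows and in 0.0508% of all. Cat held 1 half-site, between 169 and 164 bases before the start. TATAAA was in Fabp1 only, 40 to 35 bases before the start, and in 12.9% of all windows. CCAAT was in all 6 windows, with 4 matches in Cat and 3 in Acaa1a, and in 34.0% of all. A match is a run of letters and no evidence of binding. Fabp1, with the repeat, had the smallest fall of the 6 genes by their brightest probe. Whether a match relates to the fall of a gene was not tested. Sequence outside these windows was not searched, so sites further from the start would be missed.

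Fabp1, the liver fatty acid binding protein that carries fatty acids in the hepatocyte cytosol, was at 3.84, 3.73 and 3.19 on the fibrosis arrays and at 4.69, 4.48 and 4.58 on the normal arrays. The groups did not overlap on this scale, and fibrosis array 3 was the lowest. The difference was -0.998 ± 0.26 (SE; 95% interval -1.59 to -0.40; limma adjusted p = 0.0304). Against the normal arrays of its own slide row, fibrosis array 1 gave -0.74, and the call was lost (adjusted p = 0.325). The call was lost without any 1 of the 3 normal arrays (adjusted p 0.0914 to 0.1197), with quantile normalization (-0.51) and with cyclic loess (-0.47), while the direction held in these settings.

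Acsl1, a long-chain acyl-CoA synthetase that activates fatty acids for both oxidation and storage, stood at 3.00, 3.03 and 2.98 in fibrotic livers and at 4.64, 4.67 and 4.39 in normal livers. The 3 fibrotic livers were almost level, with an SD of 0.0224 against 0.155 among normal livers. The gap between the lowest normal and the highest fibrotic liver was 1.36. The difference was -1.56 ± 0.22 (SE; 95% interval -2.07 to -1.05; limma adjusted p = 0.00224), and it stayed between -1.65 and -1.51, with the call kept, whichever array was left out. Fibrosis array 1 alone, against the normal arrays of its slide row, gave -1.56 as well (adjusted p = 0.0414, with a range of 0.000177 to 0.0631 over the alternatives).

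Ehhadh encodes the bifunctional enzyme of peroxisomal beta-oxidation, which both hydrates and dehydrogenates the chain. Its processed signal was 16368, 1777 and 6402 on the fibrosis arrays and 26419, 41853 and 38316 on the normal arrays. As scaled log2 levels these were 1.35, -1.45 and 0.32 in fibrotic livers against 2.76, 3.25 and 3.35 in normal livers. The groups stood 1.40 apart at their nearest arrays, and fibrotic livers spread more widely than normal ones, with an SD of 1.42 against 0.318. Ehhadh changed by -3.04 ± 0.62 (SE; 95% interval -4.48 to -1.61; limma adjusted p = 0.0117). Only 0.223% of tested probes had a difference as low or lower. The size depended on which fibrotic livers were in: the difference was -2.28 without fibrosis array 2 (adjusted p = 0.00874) and -3.68 without fibrosis array 1. Fibrosis array 1 alone, against the normal arrays of its slide row, gave -1.77 and no call (adjusted p = 0.201; the alternatives ran from 0.00373 to that value).

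Decr2, the peroxisomal dienoyl-CoA reductase that prepares unsaturated chains for the cycle, had the smallest adjusted p among the members. Its levels were -1.73, -2.35 and -1.75 in fibrotic livers and 0.92, 0.25 and 0.45 in normal livers. Both groups had a similar spread, with SDs of 0.353 and 0.347, and were 1.97 apart at their nearest arrays. Decr2 changed by -2.48 ± 0.29 (SE; 95% interval -3.15 to -1.81; limma adjusted p = 0.000872). It was called under 16 of 16 alternatives with more than 1 array in each group, with values from -2.84 to -1.71 and adjusted p from 0.000243 to 0.010. Fibrosis array 1 alone, in the fit with the slide row, gave -2.27 (adjusted p = 0.0290).

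Acaa1a, the peroxisomal ketoacyl-CoA thiolase that makes the final cut of the cycle, was read by a pair of probes that fell by different amounts. The brighter probe, A_64_P158491, stood at 3.28, 3.62 and 3.15 in fibrotic livers and at 4.65, 4.53 and 4.17 in normal livers, a difference of -1.10 ± 0.26 (SE; limma adjusted p = 0.0197). The probe A_43_P11432 stood at 2.95, 3.18 and 3.06 in fibrotic livers against 3.73, 3.75 and 3.79 in normal livers. Its difference was -0.69 ± 0.22 (SE; adjusted p = 0.0622), although the groups did not overlap on either probe. Acaa1b is a close paralog with the same enzyme activity, and whether each probe reads only its own gene was not tested. Its probes changed by -1.21 ± 0.22 (SE; adjusted p = 0.00680) and -1.27 ± 0.30 (SE; adjusted p = 0.0216). The call of the brighter Acaa1a probe was lost without normal array 1 or 2 or without fibrosis array 1 (adjusted p up to 0.0870), and with quantile normalization (-0.61) or cyclic loess (-0.59). It was also lost in the fit with the slide row (-1.17, adjusted p = 0.147).

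Cat encodes catalase, the enzyme of the peroxisome that turns hydrogen peroxide into water and oxygen. Its levels were 0.72, -1.25 and 0.01 in fibrotic livers and 0.88, 2.23 and 2.15 in normal livers. Both groups were widely spread, with SDs of 1.00 and 0.758, and only 0.154 separated fibrosis array 1 from normal array 1. Cat changed by -1.93 ± 0.55 (SE; 95% interval -3.19 to -0.66; limma adjusted p = 0.0434), the weakest test of the 6 genes by their brightest probe. Leaving out normal array 2 (-1.69, adjusted p = 0.147), normal array 3 (-1.73, 0.154), fibrosis array 2 (-1.39, 0.0822) or fibrosis array 3 (-2.02, 0.0735) ended the call, and in the fit with the slide row the difference was -1.03, with no call (adjusted p = 0.488). The direction was the same under all 18 alternatives in which Cat was tested.

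**Figure D1:**
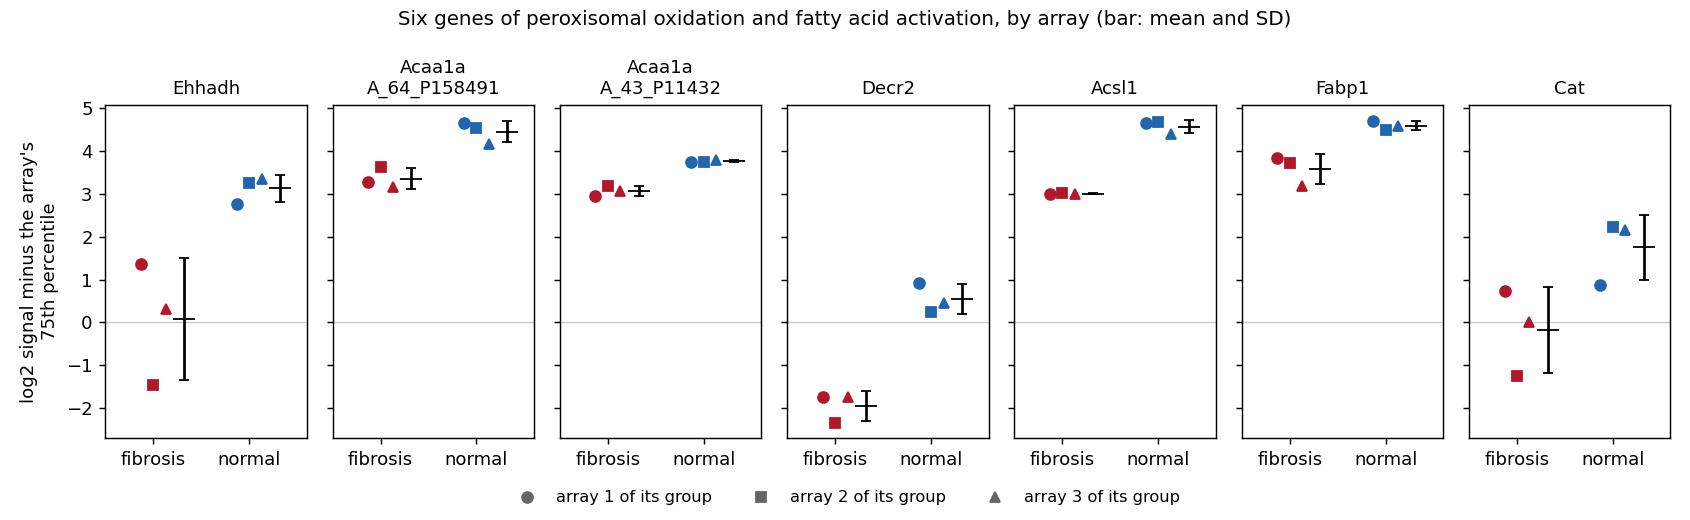
Level of each of the 7 member probes on each array, as log2 signal minus the 75th percentile of the array (y axis), with fibrosis arrays left of normal arrays in each panel; symbols number the arrays within a group and bars give mean and SD (n = 3). No panel shows overlap, Acsl1 is tight in fibrotic livers (SD 0.0224), and Ehhadh and Cat are spread (SD 1.42 and 1.00).

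At the reported scaling the groups did not overlap on any of the 7 probes. At that scaling 19.3% of all tested probes, and 20.9% of all tested genes, were lower with no overlap. Before scaling, the processed signals of Cat and Fabp1 did overlap. Cat read 10576 on fibrosis array 1 and 7181 on normal array 1. Fabp1 read 91608 on fibrosis array 1 and 89863 on normal array 3. Overlap under the other scalings was not counted. The fibrotic livers did not keep 1 order across the genes. Fibrosis array 2 was the lowest of its group for Ehhadh, Decr2 and Cat, and fibrosis array 3 for the other 3 genes by their brightest probe. Fibrosis array 1 was lowest for 0 of the 6 genes.

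How unequal the falls were can be read from the ratio of a pair of members within each array. A scaling by 1 factor per array cancels in this ratio, but quantile normalization and cyclic loess depend on intensity and do not. With quantile normalization the difference was -2.55 for Decr2 and -1.07 for Acsl1, against -2.48 and -1.56 in the values reported. The ratios below hold for the reported scaling. Over 15 pairs, the log2 ratio of Ehhadh to Fabp1 changed most, by -2.05, and that of Acaa1a to Fabp1 least, by -0.10. The ratio did not overlap between groups in 8 of 15 pairs, among them Ehhadh to Acaa1a (-1.95), Decr2 to Fabp1 (-1.48) and Decr2 to Acsl1 (-0.92). With 3 arrays against 3, a two-sided exact permutation test cannot go below p = 0.1, which these pairs reached, and the Benjamini-Hochberg adjusted value over the 15 pairs was 0.188, so no pair passed. Among the 8, some separations were narrow. The ratio of Ehhadh to Acaa1a was -1.92 on fibrosis array 1 and -1.89 on normal array 1. That of Acsl1 to Fabp1 was -0.204 on fibrosis array 3 and -0.195 on normal array 3. In the other 7 pairs the ratios overlapped, including Ehhadh to Decr2 (-0.56) and Cat to Acsl1 (-0.37). Each member is in several of the pairs, so the pairs are not independent. The share of ratios without overlap among pairs of all tested genes was not computed. Whether 8 of 15 is unusual on these arrays was therefore not tested.

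Hepatocyte markers were lower in fibrotic liver too, and markers of bile duct and scar-forming cells were higher. In whole liver tissue, fewer hepatocytes and less RNA per hepatocyte cannot be told apart. All 30 hepatocyte genes tested had a difference below 0 and 7 of them passed, with a median of -0.78 and a range of -1.89 to -0.30. Ehhadh and Decr2 lay below the lowest of these 30, and Cat (-1.93, SE 0.55) only just below it. With 1 array left out Cat ran from -2.38 to -1.39. Acsl1 lay within their range but below the median, and Acaa1a and Fabp1 nearer to it. In normal livers the brighter Acaa1a probe, Acsl1 and Fabp1 averaged 4.45, 4.56 and 4.58, and Ehhadh, Cat and Decr2 3.12, 1.75 and 0.54. How brightness relates to the size of the falls was not tested. The summed level of the hepatocyte list was 267 to 344 times the 75th percentile of the array in fibrotic livers and 480 to 525 times in normal livers. Alb, albumin, changed by -0.84 ± 0.37 (SE; adjusted p = 0.162).

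The level of the hepatocyte list offers a measured scale for the members. Its median was 3.24, 3.74 and 3.18 on the fibrosis arrays and 4.10, 4.27 and 4.10 on the normal arrays. Fibrosis array 2, on which Ehhadh, Decr2 and Cat were lowest, had the highest hepatocyte level of its group. That array also had the highest summed level of cholangiocyte markers (24.1, against 19.7 and 15.5) and of stellate cell and myofibroblast markers (49.2, against 44.8 and 25.9). How these levels relate to the members on 1 array was not tested. With each array set to this median, Decr2 (-1.71, adjusted p = 0.010) and Ehhadh (-2.28, adjusted p = 0.0345) were still called lower, where 1.14% of all tested probes were lower and 30.1% higher. Acsl1 (-0.79, 0.0631), Cat (-1.16, 0.166), the brighter Acaa1a probe (-0.33, 0.371) and Fabp1 (-0.23, 0.562) were not. The other Acaa1a probe turned to 0.077 (0.839).

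**Figure D2:**
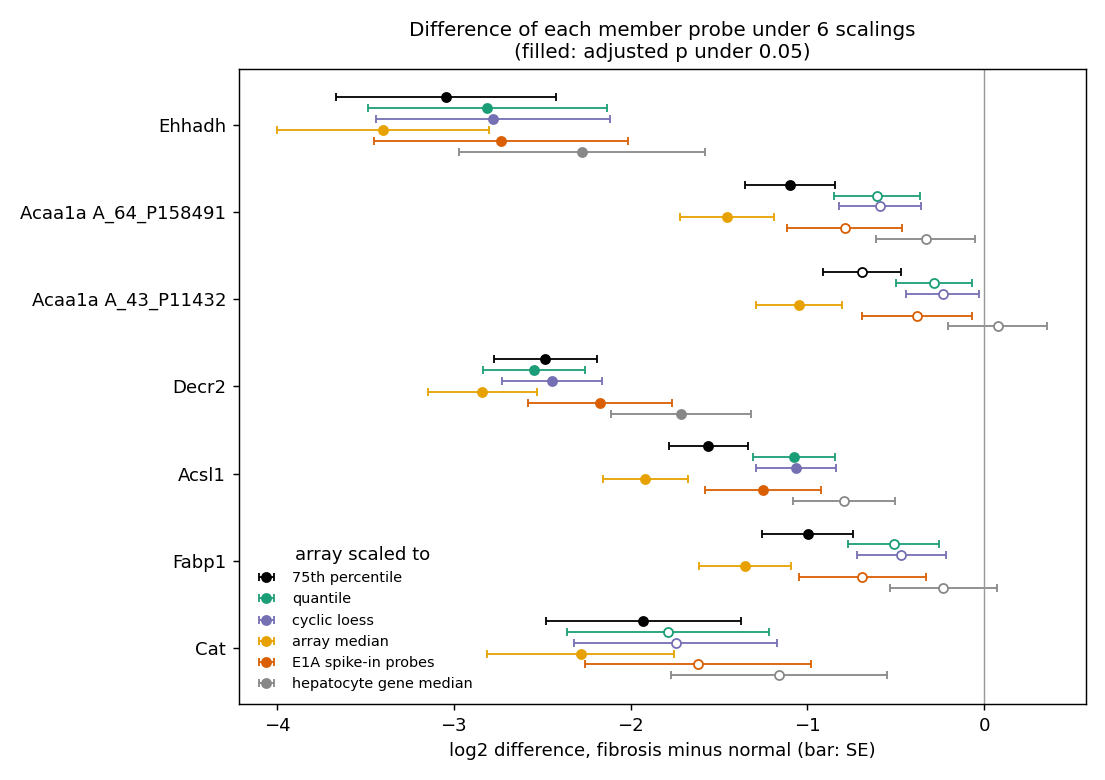
Log2 difference of each member probe, fibrosis minus normal (x axis), under 6 ways to scale the arrays, with SE as bars and filled points for an adjusted p under 0.05. Ehhadh and Decr2 stay filled in all 6 scalings, Acsl1 in 5, and only A_43_P11432 of Acaa1a crosses 0, at 0.077 with the hepatocyte gene median.

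Of 12 cholangiocyte markers tested, 11 rose and 0 fell, and their summed level was 15.5 to 24.1 in fibrotic livers and 1.53 to 1.99 in normal livers. Krt19, a bile duct keratin, rose by 3.49 ± 0.25 (SE; limma adjusted p = 0.000104). Of 13 stellate cell and myofibroblast markers, 10 rose and 0 fell, at 25.9 to 49.2 against 9.84 to 14.5, and Col1a1, type I collagen, rose by 3.19 ± 0.64 (SE; adjusted p = 0.0106). Red cells are rich in catalase protein, while the arrays read RNA. The summed red cell list was lower, at 17.1 to 27.5 in fibrotic livers and 32.8 to 39.1 in normal livers. In that list 1 of 5 genes tested, Hbb, passed, downwards, and it alone had groups that did not overlap. The 2 probes of Hba-a1 differed in sign, at -0.58 and 0.0075. Macrophage and leukocyte markers had 2 of 14 higher and 2 lower, and endothelial markers 0 of 6 called. The part of these lists in the results for the members was not tested beyond the hepatocyte scale above.

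**Figure D3:**
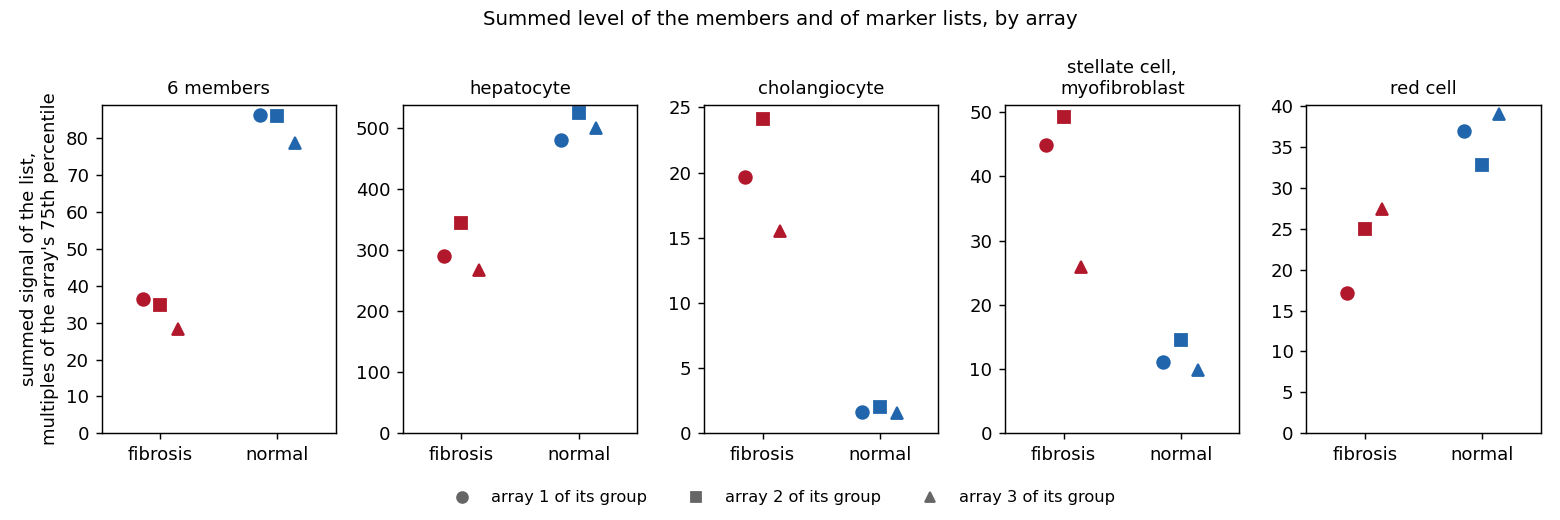
Summed signal of the 6 members and of 4 marker lists on each array, in multiples of the 75th percentile of the array (y axes start at 0 and differ between panels), with fibrosis arrays left of normal arrays. The members, hepatocyte and red cell sums are lower on all 3 fibrosis arrays, and the cholangiocyte and stellate cell sums are higher.

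Genes around the members in the peroxisome were lower in part. Of 23 other genes of peroxisomal beta-oxidation and its helpers, 0 rose and 9 fell, with a median of -0.80. Of all tested genes, 14.7% were called higher and 7.62% lower, and their median was -0.07. The 30 hepatocyte markers had a median of -0.78 with 7 lower, near the median of this list and of the peroxin, oxidase and receptor lists below. A shift particular to the peroxisome was not tested. Hsd17b4, the other bifunctional enzyme, which handles branched chains and bile acid precursors, changed by -1.13 ± 0.26 (SE; limma adjusted p = 0.0176), and Abcd3, a transporter of the peroxisomal membrane, by -1.01 ± 0.22 (SE; 0.0161). The largest decreases in the list were those of Acot12 (-2.51 ± 0.27, SE; 0.000534), a thioesterase of the cytosol rather than the peroxisome, and Acot4 (-2.08 ± 0.48, SE; 0.0187), a peroxisomal thioesterase.

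The peroxin list holds peroxins, which build the organelle, and the membrane proteins Pxmp2 and Pxmp4. It had 0 of 18 higher and 7 lower, at a median of -0.88, and Pxmp4 was among the lower ones (-1.24, limma adjusted p = 0.0167). Pex5, the receptor that imports most matrix enzymes, was at 0.01, -0.13 and -0.84 in fibrotic livers against 1.07, 1.30 and 1.18 in normal livers, a difference of -1.50 ± 0.29 (SE; limma adjusted p = 0.00833). Pex11a, a division factor and textbook PPAR alpha target, changed by -1.46 ± 0.28 (SE; 0.00803). Of 19 peroxisomal oxidases and other enzymes tested, 0 rose and 8 fell, at a median of -0.71. Ephx2, an epoxide hydrolase, had the same difference as Ehhadh to 2 decimals, -3.04 ± 0.61 (SE; 0.0110), and stood clear of background on 5 of the 6 arrays. Hao1, a glycolate oxidase that makes peroxide, changed by -2.18 ± 0.30 (SE; 0.00201), and Uox, urate oxidase, by -0.65 ± 0.24 (SE; 0.107).

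Acsl1 was not followed by all other activating enzymes. Of 15 tested, 5 fell and 1 rose, at a median of -0.60. Acsm5 (-2.32 ± 0.44, SE; limma adjusted p = 0.00874) and Acsm3 (-1.55 ± 0.42, SE; 0.0358) activate medium-chain acids, and Slc27a2 (-1.02 ± 0.24, SE; 0.0214) very long chains. Within the family of Acsl1, Acsl4 (-0.99 ± 0.32, SE; 0.0710) and Acsl5 (-0.59 ± 0.26, SE; 0.166) did not pass, nor did Slc27a5 (-0.60 ± 0.38, SE; 0.316), which also activates bile acids. Slc27a3 was the 1 that rose, by an estimated 10.97-fold (3.45 ± 0.31, SE; 95% interval 2.74 to 4.17; adjusted p = 0.000237). No normal array read it above background, so the size of its rise is uncertain.

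Fabp1 differed in direction from several of its relatives. Of 10 other fatty acid binding and uptake genes, 3 rose and 1 fell, at a median of 0.09, which ran from -0.26 to 0.40 over 5 other scalings. The 3 that rose became 1 without normal array 2 or 3, and the 1 that fell became 2 without fibrosis array 2. Fabp4, the binding protein of adipocytes, macrophages and endothelium, was at -0.16, -0.31 and -0.43 in fibrotic livers and at -3.02, -4.21 and -3.88 in normal livers, a rise of 10.6-fold (3.40 ± 0.33, SE; limma adjusted p = 0.000354). The 3 adipocyte markers tested, Fabp4 included, summed to 5.44 to 5.82 in fibrotic livers and 5.68 to 6.32 in normal livers. Cfd (-0.14, adjusted p = 0.721) and Cidec (-1.50, 0.0669) stood clear of background on 6 arrays, Adipoq on 1 and Lep on 0, and their part in the rise of Fabp4 was not tested. Fabp3, of muscle (1.27 ± 0.26, SE; 0.0115), and Fabp5, of epidermis and macrophages (0.98 ± 0.24, SE; 0.0238), also rose. Fabp7, a form best known from brain, fell by 1.95 (SE 0.32, 0.00435). Whether the difference of Fabp1 differed from that of each relative was not tested.

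The receptor list gave 11 of 29 genes lower and 2 higher, at a median of -0.77. Ppara itself was at -4.85, -4.99 and -4.99 in fibrotic livers and at -4.09, -3.86 and -3.66 in normal livers, a 2.10-fold decrease (-1.07 ± 0.23, SE; limma adjusted p = 0.0150). Cpt1a, which lets acyl-CoA into mitochondria, changed by -1.19 ± 0.26 (SE; 0.0150), Pdk4, a kinase that spares glucose in fasting, by -1.67 ± 0.36 (SE; 0.0141), and Fgf21, a fasting hormone, by -2.18 ± 0.61 (SE; 0.0397). Ppargc1a, a coactivator of PPAR alpha and of mitochondrial genes, rose 2.83-fold (SE 0.32 on the log2 scale; 0.0130) and Ucp2, a mitochondrial carrier, by 1.96 log2 units ± 0.30 (SE; 0.00292). The counts of lower genes in these lists moved with the scaling: over 5 other scalings they ran from 2 to 18 for beta-oxidation, 1 to 13 for peroxins, 3 to 14 for oxidases, 1 to 8 for activating enzymes and 0 to 23 for the receptor list, with all medians of these 5 lists below 0. They also moved when 1 array was left out. Without normal array 3 they were 4, 2, 2, 1 and 1 in the same order of lists, without normal array 2 they were 5, 2, 4, 1 and 1, and without normal array 1 they were 6, 4, 3, 3 and 6. Without fibrosis array 1 they were 9, 4, 5, 2 and 8, without fibrosis array 2 they were 10, 7, 3, 5 and 9, and without fibrosis array 3 they were 13, 8, 8, 4 and 17.

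**Figure D4:**
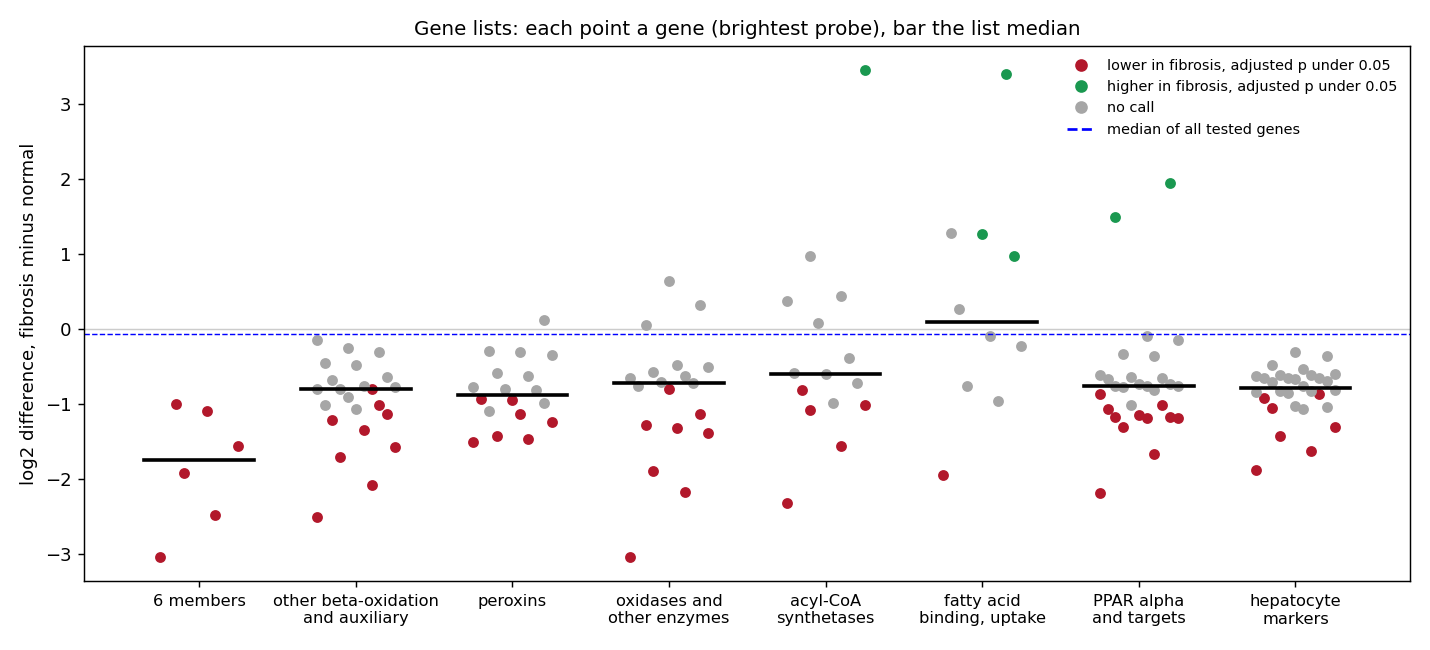
Log2 difference, fibrosis minus normal (y axis), of each tested gene of the members, 6 pathway lists and the hepatocyte markers; coloured points passed at an adjusted p under 0.05, bars are list medians and the dashed line is the median of all tested genes (-0.07). The 6 members (median -1.74) lie low, the binding list is split, and the other lists centre between -0.88 and -0.60.

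For each member, the 3 genes with the most similar values over the 6 arrays were found by the root mean square (RMS) difference of log2 levels centred on the normal mean, among 11311 named probes above background on all arrays. Closest to Ehhadh were Ces1dl1 (0.454), Aldh3a2, a fatty aldehyde dehydrogenase (0.464), and Adh6, an alcohol dehydrogenase (0.484). That Aldh3a2 probe changed by -2.43 and its brighter probe by -1.18. Closest to Decr2 were Gimd1 (0.197), a probe of the alcohol dehydrogenase Adh4 (0.210) and Akap5 (0.229). That Adh4 probe changed by -2.46 and the brighter Adh4 probe by -1.76. Closest to Acsl1 were Kyat3, a kynurenine aminotransferase (0.179), Adra1b, an adrenaline receptor (0.181), and Asrgl1, an asparaginase (0.188).

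Cat had Cth, an enzyme of cysteine synthesis (0.214), Inhbc, an activin subunit (0.283), and Dhtkd1 (0.299) as its nearest genes by this RMS difference. Cth shared the wide spread of Cat, at 0.92, -1.09 and -0.22 in fibrotic livers and at 1.03, 2.11 and 1.84 in normal livers. Fabp1 was nearest to Metap1d (0.0680), Kbtbd8 (0.0783) and Exoc5 (0.0951). Acaa1a, by its brighter probe, was nearest to Cyp2f4 (0.113), Hook1 (0.124) and a probe of the chemokine Cxcl12 (0.126). That Cxcl12 probe changed by -0.99 and the brighter Cxcl12 probe by -1.68. These likenesses cover 6 arrays and are a description.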

How the data were processed

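Total RNA of liver blocks was labelled with Cy3 and hybridised in 1 colour, per the labels. The deposited values are spot intensities written by Agilent Feature Extraction 11.5.1.1, with background subtracted and trends across the array removed in the processed signal, per the file headers. The headers record no step that sets arrays to a common level. The flags for background, saturation and marked spots are other columns that the authors deposited.

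Accessions were matched without versions to the RefSeq table of GRCr8, which named 18355 of 30367 probes. The log2 of each processed signal was taken, the 75th percentile over spots other than controls was subtracted from each array, and spots of 1 probe were averaged with marked spots kept. Tests covered the 19731 probes with 0.5 or more of their spots flagged well above background on each of the 3 arrays of either group. The comparison used limma 3.58.1 (lmFit, then eBayes; R 4.3.3), and p-values were adjusted by Benjamini-Hochberg across those probes. In lists, the probe of highest mean stood for a gene. The code was tested on simulated data. Alternatives were other scalings, marked spots left out, normexp on median signals (offset 50), other filters, trend and robust settings, the slide row as a term and leaving out each array. Nothing in the labels pairs arrays, so replicate numbers only name them. The number of arrays limits the precision.

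Genes named are the members, a set of fixed genes (1 of which is not reported here), up to 2 called genes per direction of each list and the 3 nearest genes of each member. Members, lists and tests were chosen with earlier results of these data known.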

Additional observations from a re-analysis of the deposited data

How the results depend on the processing

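Over 121 results of member probes under alternatives, 120 kept their direction. The 6 probes that were called had 103 of these results, of which 73 kept the call and 30 lost it. The 1 reversal was Acaa1a A_43_P11432 relative to the hepatocyte list median, at 0.077. That scale also ended the calls of Acsl1 (-0.79), Cat (-1.16), the brighter Acaa1a probe (-0.33) and Fabp1 (-0.23) and left 2 member probes called, against 6 in the values reported. Quantile normalization left 3 called, without Acaa1a (-0.61), Fabp1 (-0.51) and Cat (-1.79). Cyclic loess left 3, without Acaa1a (-0.59), Fabp1 (-0.47) and Cat (-1.74). Scaling to the mean of 10 E1A spike-in probes, added after seeing the data, left 3, without Acaa1a (-0.79), Fabp1 (-0.69) and Cat (-1.62). It was added because the median over all E1A spots, which was planned, lies in the gap between spike-ins of different concentration. The other Acaa1a probe gained a call with that spot median (-0.94), with the array median (-1.05) and with trend and robust settings (-0.69). With the slide row as a term, which leaves fibrosis array 1 against the normal arrays, 2 member probes were called, and Ehhadh (-1.77), Acaa1a (-1.17), Fabp1 (-0.74) and Cat (-1.03) were not. With no filter on dim probes Fabp1 (-0.998) and Cat (-1.93) lost their calls, with larger SEs and adjustment over more probes together. With marked spots left out Cat stood at -1.69 and 0 member probes were called. The cause of the lost calls was not tested.

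Leaving out 1 array gave -1.24 to -0.997 for the brighter Acaa1a probe, -1.13 to -0.80 for Fabp1, -2.38 to -1.39 for Cat and 3 to 5 member probes called. Over all probes, 1339 were lower and 2439 higher. The array median gave 3884 lower and 1890 higher, the E1A spot median 2507 and 1993, and the E1A probe mean 359 and 2780, and these scalings moved the median of all probes to -0.45, -0.34 and 0.21, against -0.10. The lower ones numbered 610 without marked spots, 799 with no filter and 178 with the slide row, where 1020 were higher. They ran from 450 to 1620 with 1 array left out, and the higher ones from 1514 to 2851. The 52 other named probes kept their direction in all 852 results under alternatives, and of the 771 results of the 47 that were called, 608 kept the call and 163 lost it, Abcd3, Hsd17b4, Slc27a2 and Ppara among them. All member probes were above background on all arrays.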
